A study of Homo sapiens with 8 samples.

Results

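Lowering the splicing factor SF3B2 with small interfering RNA (siRNA) was set beside chemical inhibition of the SF3b complex, gene by gene, in PC3 cells. The members were the 12161 protein-coding genes, of 17010 in the table, with a mean of at least 1 CPM over the 4 control libraries. CPM is a read count scaled to a common library size. A gene's level in the treated libraries did not enter this floor, but the scaling factors were computed from all 8 libraries. Without scaling factors 12252 genes were members. PC3 is an established human prostate cancer line, here grown in 3D culture in 24-well plates with 3% serum. The 4 groups held 2 libraries each. Cells were transfected for 72 h with SF3B2 siRNA (siSF3B2) or control siRNA (sictrl), or were given pladienolide B (PlaB) at 0.5 µM for 24 h or DMSO for a time that the sources used here do not state. Doses and times therefore differ between the arms, which share no library. Transfection was used in 1 arm only. The sequence of the siRNA, and whether more than 1 was used, are not stated. The labels do not tell separate cultures from repeat libraries, so the p-values reflect spread that may be technical.

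SF3b belongs to the U2 small nuclear ribonucleoprotein and holds it to the branch point of an intron, and SF3B1, SF3B2, PHF5A and their partners form it. Pladienolide B is a bacterial macrolide that sits between SF3B1 and PHF5A and blocks this step, so introns stay in the RNA or exons are skipped. Genes without introns need no splicing. These counts per gene do not separate spliced from unspliced RNA.

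Depth and replicate spread differed between the arms. Total counts per library ran from 35461248 to 72983584. Genes had a median of 227 and 223.5 reads with pladienolide B, against 871 to 1399.5 reads in the remaining 6 libraries. The 2 libraries of a group differed more than 2-fold in 0.469% of members with control siRNA, 1.88% with SF3B2 siRNA, 0.781% with DMSO and 19.5% with pladienolide B. The epithelial keratin KRT8 lay at 430 to 528 CPM and KRT18 at 373 to 473 CPM in the control libraries. The 7 measured of 19 markers of other cell types, CD68 and PECAM1 among them, summed to 162 to 199 CPM in the 6 libraries without the drug and to 106 and 182 CPM with it. Within that sum CD68 and PECAM1 lay lower with the drug, while CD14, a monocyte marker, lay at 0.409 to 1.02 CPM without the drug and at 48.9 and 52.8 CPM with it. The part of other cell types in the results was not tested. Fewer cells of a type and less RNA per cell cannot be told apart in such bulk samples.

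The siRNA target was checked first. SF3B2 lay at 228 and 228 CPM with control siRNA and at 36.4 and 30.1 CPM with its siRNA. With DMSO it lay at 237 and 248 CPM, and with pladienolide B at 459 and 632 CPM. On the scaling used, the arms thus moved SF3B2 mRNA to opposite sides of their controls. The siRNA log2 fold change was -2.78 ± 0.24 (SE) with an edgeR adjusted p of 0.0513, just over the limit of 0.05. The drug log2 fold change was 1.17 ± 0.23, with an edgeR adjusted p of 0.00228. On library size alone, without scaling factors, it was 0.30 and did not pass (edgeR adjusted p = 0.279).

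The effects differed first in size. The quartiles of the SF3B2 siRNA log2 fold change over members were -0.18 and 0.16, around a median of -0.01. Those of the pladienolide B log2 fold change were -1.78 and 0.99, around a median of -0.43. A change of at least 2-fold in either direction was seen in 163 members (1.34%) with siRNA and in 7767 (63.9%) with the drug. With edgeR's quasi-likelihood test no member passed an adjusted p of 0.05 with siRNA (0% of all 16488 genes tested). At an unadjusted p under 0.05, 152 members (1.25%) lay higher and 303 (2.49%) lower. In this fit of all 8 libraries these together are a smaller share than the 0.05 that such a limit lets pass where nothing changes. Over all genes tested those unadjusted shares were 1.66% higher and 2.21% lower. In the siRNA arm fitted alone 421 members lay higher and 702 lower at that limit, together a larger share than 0.05. The share thus depends on the fit. DESeq2 called 33 of the 15031 genes it tested with siRNA (0.22%), of which 5 members were higher and 24 lower. With the drug 3510 members (28.9%) rose and 5156 (42.4%) fell, against 32.5% and 35.5% of all genes tested. On library size alone, without scaling factors, the drug split moved to 2053 higher and 7254 lower and its median to -1.30, so drug directions here are relative to the scaling.

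**Figure D1:**
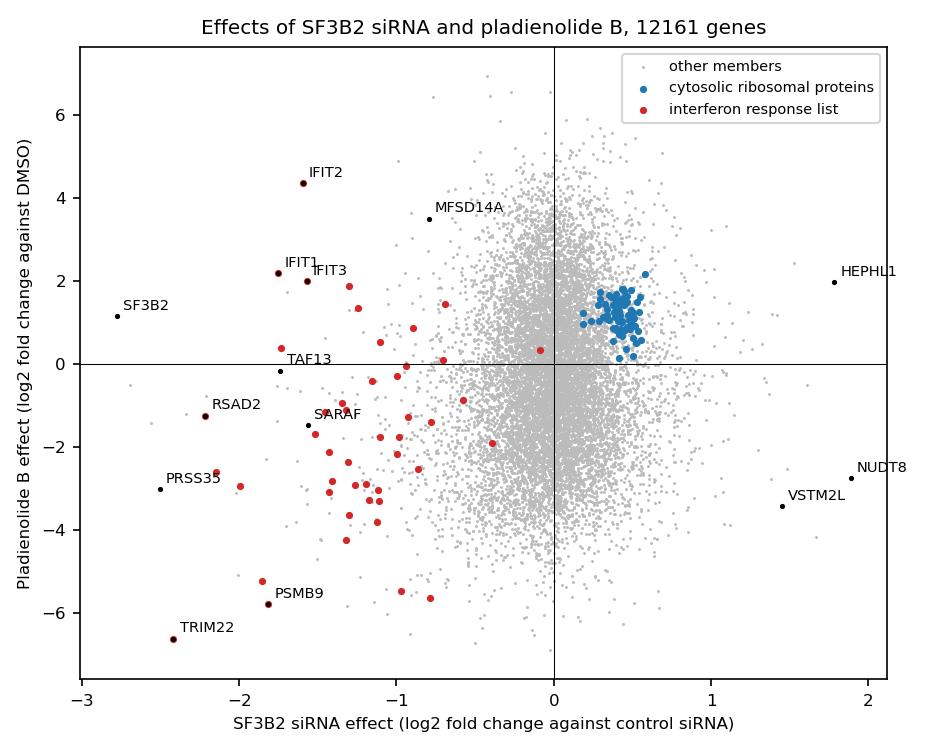
Each point is 1 of 12161 members, with the log2 fold change of SF3B2 siRNA against control siRNA on the horizontal axis and of pladienolide B against DMSO on the vertical axis. The cloud is far taller than wide, all 46 interferon genes (red) lie left of 0 and all 74 ribosomal protein genes (blue) lie above and right of 0.

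Across members the measured effects were almost unrelated. Pearson's r was 0.103 and Spearman's rho 0.080 over 12161 genes, given as a description since genes are not independent and share their libraries. The sign was the same in 51.9% of members. Using 1 replicate per group, r ran from 0.047 to 0.136 over the 4 pairings of a siRNA with a drug replicate. The siRNA effects themselves repeated less closely than the drug effects. Between the 2 replicates they correlated at 0.531 with matched replicate numbers and at -0.0006 with crossed numbers. For the drug these values were 0.909 and 0.895. Replicate differences correlated at 0.542 to 0.667 among control siRNA, SF3B2 siRNA and DMSO. Crossing the numbers puts such a shared difference into the 2 siRNA effects with opposite signs. The crossed siRNA value therefore cannot measure how well the effects repeat. The siRNA effects had a standard deviation of 0.33 over members, beside a median SE of 0.28. That SE is from the fit of all 8 libraries without the replicate number. How far this spread lowered r between the arms was not tested. Leaving out 1 library at a time, r ran from 0.022 without control siRNA replicate 2 to 0.162 without control siRNA replicate 1. Without the interferon list r was 0.095. By control level, r was 0.061 over the 1534 members at 1 to 5 CPM and 0.217 over the 1804 members at 100 CPM or more, or 0.176 there without ribosomal protein genes.

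The likeness that there was lay on the lower side. In the decile of members most lowered by siRNA (1217 genes, median siRNA log2 fold change -0.53), 54.2% fell and 17.0% rose with the drug. In the decile most raised (1216 genes, median 0.47), 41.4% fell and 26.2% rose, close to the shares over all members. Leaving the interferon list out of the lowest decile moved its median drug effect from -1.24 to -1.23. Of the 303 members lower with siRNA at an unadjusted p under 0.05, 181 (59.7%) fell with the drug, 47 (15.5%) rose and 75 passed in neither direction. Of the 152 members higher, 47 (30.9%) rose with the drug, 61 (40.1%) fell and 44 passed in neither direction. The shares for the higher members lie near those over all members. These 4 counts depend on the fit and the libraries used, and so do the counts they are taken from. With the replicate number as a block, 288 of 464 members lower with siRNA fell with the drug. On library size alone 206 of 260 did.

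**Figure D2:**
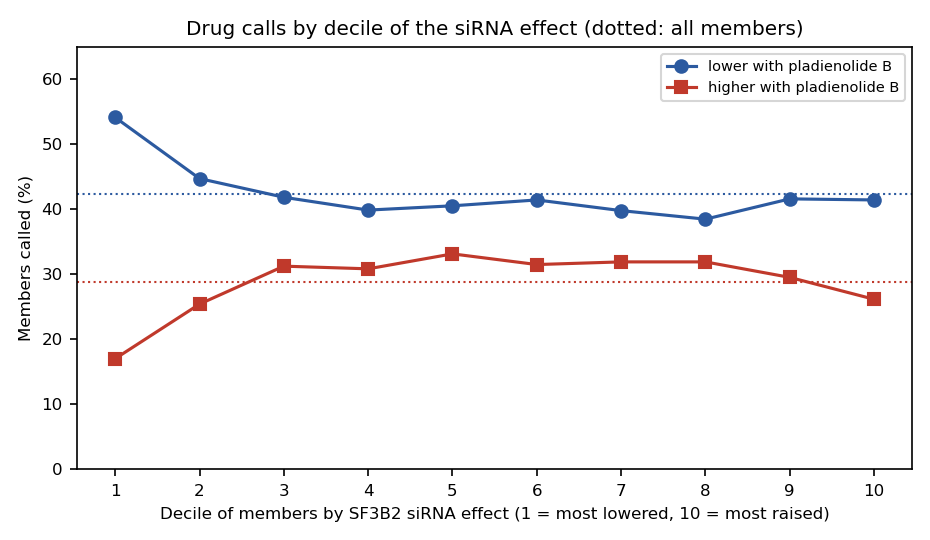
Members were sorted by their SF3B2 siRNA effect into deciles (horizontal axis), and the vertical axis gives the percent that fell (circles) or rose (squares) with pladienolide B at an edgeR adjusted p under 0.05. Decile 1 stands apart at 54.2% lower and 17.0% higher, while decile 10 lies near the dotted lines for all members.

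The difference between the effects was tested for each gene as an interaction, siRNA effect minus drug effect. It passed in 4170 members with the siRNA effect above the drug effect and in 2827 with it below, against 28.5% and 25.2% of all genes tested. Of the 8666 members that changed with the drug, 6930 also passed in the interaction and 1736 did not. Among genes on the same side in both arms, the interaction passed for 118 of the 181 lower and 20 of the 47 higher, and the drug effect was the larger in 176 and 42 of them. Among genes on opposite sides it passed for all 47 and all 61, in groups defined by those same effects. A test that needs both effects at once, the larger p where signs agree, passed for no member in edgeR (0% of all genes tested; 235 members at an unadjusted p under 0.05, smallest adjusted p 0.395) and for 11 members in DESeq2.

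These 11 genes were lower in both arms except HEPHL1. PRSS35, a serine protease-like gene on chromosome 6, lay at 5.42 and 4.76 CPM with control siRNA and at 0.801 and 0.990 CPM with SF3B2 siRNA. It lay at 4.52 and 4.88 CPM with DMSO and at 0.572 and 0.596 CPM with pladienolide B. All 4 treated libraries were below all 4 controls, and the log2 fold changes were -2.51 ± 0.29 and -3.01 ± 0.31. Its DESeq2 adjusted p for both effects was 8.79e-09, and its difference of 0.50 ± 0.41 had an edgeR adjusted p of 0.333. That difference was 1.39 on library size alone and passed there (edgeR adjusted p = 0.0205). PRSS35 has 2 exons and low counts, 56 and 56 reads with SF3B2 siRNA and 15 and 14 with the drug.

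SARAF, a regulator of store-operated calcium entry, lay at 213 and 171 CPM with control siRNA and at 72.6 and 57.6 CPM with SF3B2 siRNA. With DMSO it lay at 205 and 147 CPM and with the drug at 52.0 and 76.0 CPM. The groups did not overlap, and the siRNA and drug log2 fold changes of -1.56 ± 0.28 and -1.46 ± 0.28 left a difference of -0.10 ± 0.39. The drug effect on library size alone was -2.32 and the difference 0.77, which did not pass, so the near equality depends on the scaling. HEPHL1, a ferroxidase-like gene of the hephaestin family, was the 1 gene raised in both by DESeq2. It lay at 1.22 and 1.66 CPM with control siRNA, 4.31 and 5.62 CPM with SF3B2 siRNA, 0.910 and 1.04 CPM with DMSO, and 3.20 and 4.55 CPM with the drug. Its log2 fold changes were 1.78 ± 0.33 and 1.98 ± 0.34, and on library size alone the drug value was 1.12 and the difference 0.69.

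The other 8 genes fell further with the drug than they lay below control with siRNA. TRIM5, which restricts retroviral capsids, had a siRNA log2 fold change of -1.11 ± 0.19 and a drug log2 fold change of -3.30 ± 0.20. CEACAM6, a cell surface adhesion protein, had -0.92 ± 0.19 and -3.99 ± 0.22. RNFT1 had -1.15 ± 0.20 and -3.32 ± 0.23, and RBBP9, a serine hydrolase, -1.13 ± 0.25 and -3.72 ± 0.29. MICALCL had -1.64 ± 0.30 and -3.80 ± 0.41. The interaction passed in edgeR for all 5, with adjusted p from 0.000166 (CEACAM6) to 0.00887 (MICALCL). TRIM22, PSMB9 and RTP4 are interferon-response genes, and so is TRIM5, which is in the interferon list.

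By the naming rule, which kept genes with a mean of at least 5 CPM over the controls or over a treated group and so left out PRSS35, RTP4, MICALCL and HEPHL1, the genes lower in both arms with the largest smaller effect were TRIM22, CMPK2, PSMB9, GBP3, LAMP3 and DDX60L, all known as interferon-inducible. TRIM22 lay at 17.2 and 33.5 CPM with control siRNA and at 3.69 and 5.78 CPM with SF3B2 siRNA. With DMSO it lay at 37.1 and 54.7 CPM and with the drug at 0.153 and 0.809 CPM. PSMB9, an immunoproteasome subunit, lay at 9.94, 19.6, 4.35 and 4.05 CPM in the siRNA arm and at 15.7, 24.6, 0.229 and 0.511 CPM in the drug arm. The drug libraries of both genes were below every siRNA library, and the interaction passed with edgeR adjusted p of 0.00407 and 0.00173. By the same rule the genes higher in both were ARMH4, KIF18B, DOK3, NPIPA8, BCAM and FOXH1. BCAM, a laminin receptor, lay at 34.4 and 45.9 CPM against 101 and 75.8 CPM with SF3B2 siRNA, and at 43.3 and 43.9 CPM against 115 and 58.5 CPM with the drug. Its drug log2 fold change of 0.99 was 0.11 on library size alone and did not pass there. KIF18B, a mitotic kinesin, had log2 fold changes of 1.09 ± 0.45 and 3.34 ± 0.48. Counts of NPIPA8, a member of a duplicated family, may be split among near-identical copies.

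Interferon-response genes lay lower in sign with SF3B2 siRNA as a group. Interferon genes are switched on through a shared promoter element, and many of their products act against viral RNA or proteins. All 46 list members were lower in sign with siRNA, with a median log2 fold change of -1.22 beside -0.01 over all members. By edgeR 19 passed an unadjusted p under 0.05 and none an adjusted one, and DESeq2 called 7. The 19 became 44 in the siRNA arm fitted alone or without either pladienolide B library, 8 without control siRNA replicate 2 and 9 without SF3B2 siRNA replicate 1. With the drug the median was -1.75, beside -0.43 over all members. The drug lowered 20 of the 46 and raised 5, beside 42.4% lower and 28.9% higher over all members, so the share that fell was near that of all members. The counts became 32 lower and 3 higher on library size alone. The 5 that rose were IFIT1, IFIT2, IFIT3, IFIT5 and OASL, and OASL at 1.00 on library size alone did not pass (edgeR adjusted p = 0.0641). For IRF1, an inducer of many of these genes, the siRNA log2 fold change was -1.15 and the drug log2 fold change -0.39.

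IFIT2, which binds viral RNA, lay at 277 and 395 CPM with control siRNA and at 76.9 and 145 CPM with SF3B2 siRNA. With DMSO it lay at 386 and 535 CPM and with pladienolide B at 9775 and 9361 CPM. IFIT1 lay at 221 and 345 CPM, then 63.6 and 105 CPM, in the siRNA arm, and at 360 and 499 CPM, then 1881 and 2061 CPM, in the drug arm. In both genes the siRNA libraries were the lowest and the drug libraries the highest of all 8. The interaction was -5.97 ± 0.56 for IFIT2 and -3.95 ± 0.49 for IFIT1, with edgeR adjusted p of 0.000186 and 0.000495. RSAD2, an antiviral radical SAM enzyme, lay lower in both, at 13.1 and 23.8 against 63.2 and 108 CPM with siRNA and at 45.4 and 69.1 against 122 and 147 CPM with the drug.

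Matches to the interferon-stimulated promoter element are shown for genes that rose and genes that fell with the drug. The search was for 2 GAAA words with any 2 bases between them, read on either strand (TTTC on the other), in the 250 bases before RefSeq starts. It was found in 340 of 10027 members with a promoter entry (3.39%) and in 22 of 37 interferon list genes (59.5%), among them 3 of 3 that rose and 8 of 17 that fell with the drug and have an entry. The stretches below are from RefSeq (GRCh38.p14), written 5′ to 3′ along the gene's strand, with the matches in capitals.
IFIT1 (rose with the drug), chr10:89392492-89392544, plus strand: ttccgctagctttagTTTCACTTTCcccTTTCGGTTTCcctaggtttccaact
IFIT3 (rose with the drug), chr10:89327826-89327899, plus strand: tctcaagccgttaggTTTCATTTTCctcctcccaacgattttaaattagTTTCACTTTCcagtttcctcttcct
RSAD2 (fell with the drug), chr2:6877617-6877656, plus strand: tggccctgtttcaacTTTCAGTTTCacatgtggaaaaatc
TRIM5 (fell with the drug), chr11:5685077-5685116, minus strand: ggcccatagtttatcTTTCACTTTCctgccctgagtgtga
RTP4 (fell with the drug), chr3:187368328-187368384, plus strand: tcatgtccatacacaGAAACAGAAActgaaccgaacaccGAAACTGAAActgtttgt
A match describes these letters only, and binding was not measured.

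Exon number, which the choice of the list did not use, was set beside the drug effect on the interferon genes. The 8 genes with 2 exons had a median drug log2 fold change of 0.73, with 4 higher and 0 lower. The 4 that rose are all of the IFIT family, which lies together on chromosome 10. The other 4 did not pass, with drug log2 fold changes of -1.74 for IFITM1, -0.28 for IFITM2, 0.11 for IFITM3 and -0.03 for ISG15. The 38 with 3 or more exons had a median of -2.25, with 1 higher (OASL) and 20 lower. With siRNA the same classes lay together, at -1.18 and -1.23. RTP4, an interferon-induced gene outside the list that also has 2 exons, fell with the drug by 5.08 on the log2 scale. The drug replicates differed for this list, at a mean log2 CPM of 4.18 in replicate 1 and 6.55 in replicate 2, against 7.34 and 7.69 with DMSO. Without replicate 1 the drug counts were 11 higher and 25 lower, and without replicate 2 they were 4 higher and 38 lower.

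**Figure D3:**
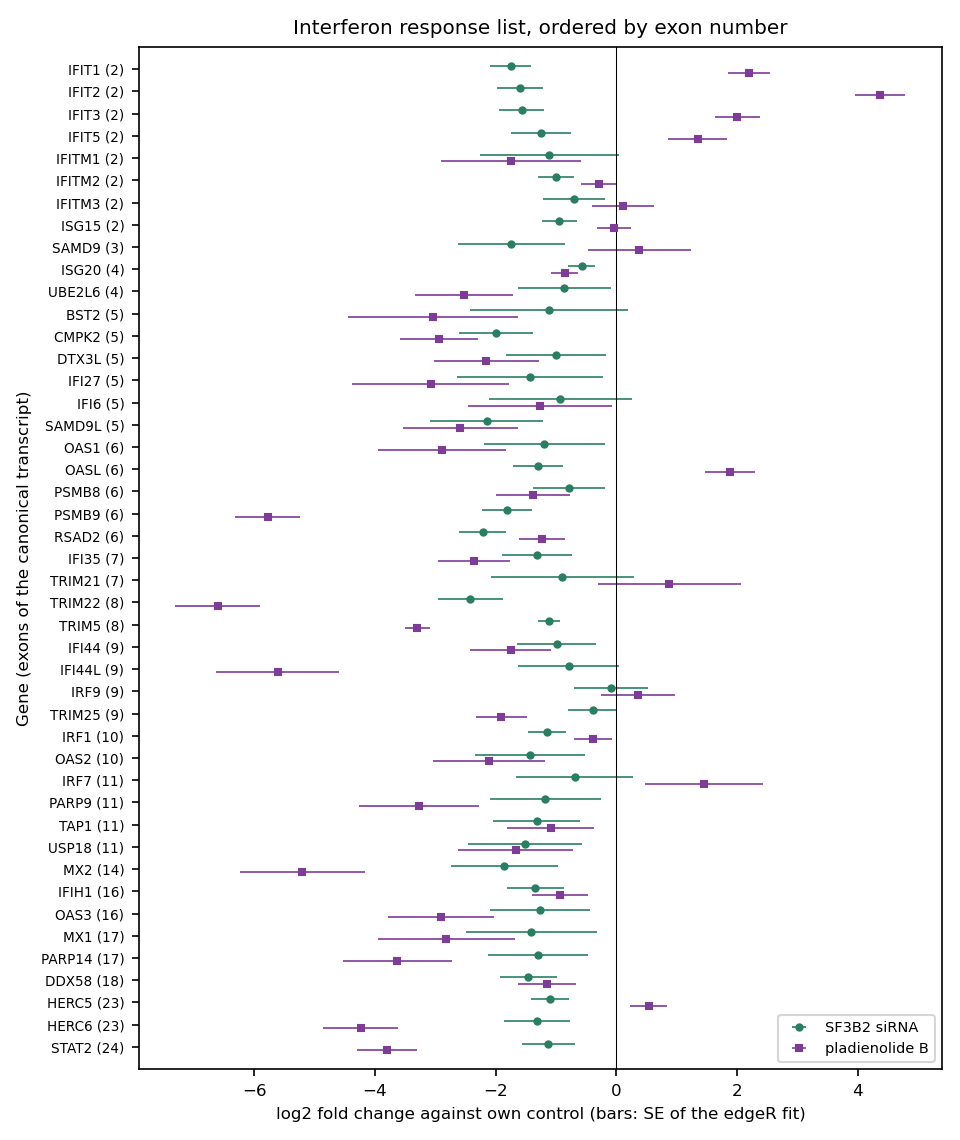
Each of 45 of the 46 interferon list genes has its SF3B2 siRNA effect (circles) and pladienolide B effect (squares) as log2 fold change on the horizontal axis, with bars of 1 SE, ordered by the exons of the canonical transcript. The siRNA effects all lie below 0, while among the drug effects above it those of IFIT1, IFIT2, IFIT3, IFIT5 and OASL passed the test.

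Over all members the drug effect fell with exon number and the siRNA effect hardly moved. The 269 single-exon members had a median drug log2 fold change of 1.49, and 69.1% rose and 7.06% fell. The 1897 members with 20 or more exons had a median of -1.05, and 14.7% rose and 55.6% fell. With siRNA the same classes had medians of -0.005 and -0.08. The siRNA median of the 20-exon class was 0.03 without SF3B2 siRNA replicate 1 and -0.25 without replicate 2, so its sign rested on 1 library. The drug medians kept their order from fewest to most exons without either drug replicate. They also kept it on library size alone, but their level depends on the scaling. There the median was 0.61 for single-exon members and -1.91 for 20 or more exons. For 2 to 4 exons it was -0.40 there, against 0.48 with the scaling used. Within the decile most lowered by siRNA, the median drug log2 fold change was 1.12 over the 31 single-exon members and -1.69 over the 245 members with 20 or more exons.

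**Figure D4:**
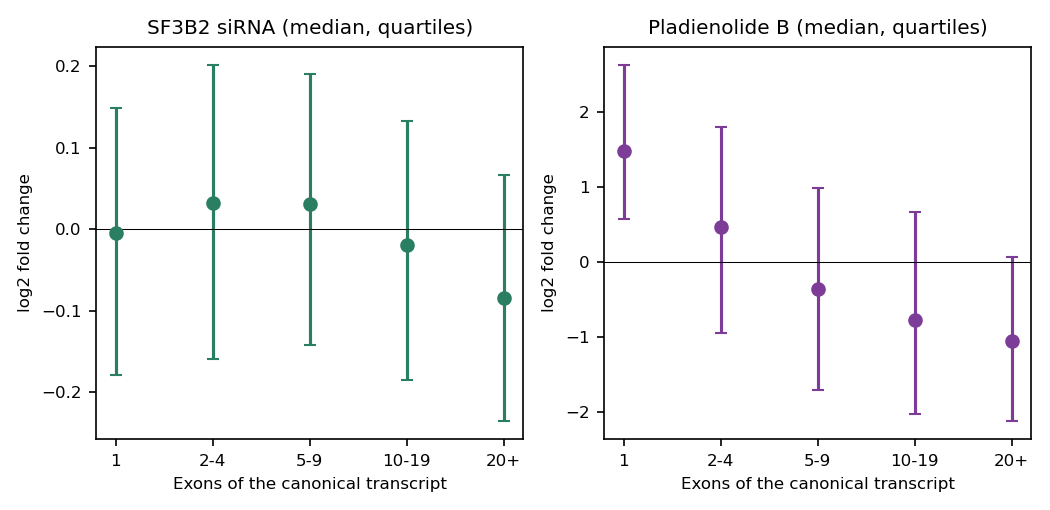
Points give the median log2 fold change and bars the quartiles over members in 5 classes of exon number, for SF3B2 siRNA (left) and pladienolide B (right), with different vertical scales. With the scaling used, the drug medians step down from 1.49 to -1.05, and the siRNA medians stay between -0.08 and 0.03.

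Several genes went opposite ways in the arms. TOB1, an antiproliferative protein that recruits the CCR4-NOT deadenylase, lay at 91.7 and 101 CPM with control siRNA and at 46.6 and 50.6 CPM with SF3B2 siRNA. It lay at 92.6 and 96.5 CPM with DMSO and at 354 and 360 CPM with the drug. MFSD14A, a predicted transporter, lay at 78.5 and 83.6 CPM against 44.5 and 48.8 CPM with siRNA, and at 88.3 and 87.9 CPM against 1002 and 1007 CPM with the drug. In both genes the replicates lay close together and the groups did not overlap. COPS2, a COP9 signalosome subunit, had log2 fold changes of -0.90 ± 0.20 and 1.48 ± 0.20. On the other side, NUDT8, a Nudix hydrolase, lay at 10.4 and 9.40 CPM against 53.2 and 20.2 CPM with siRNA, and at 14.4 and 8.83 CPM against 1.87 and 1.62 CPM with the drug. VSTM2L had log2 fold changes of 1.45 ± 0.37 and -3.41 ± 0.42. UPK3BL1 and UPK3BL2 went the same way as VSTM2L, but reads may be shared between these near-identical copies. The interaction passed in edgeR for each of these genes. Of the 29 members DESeq2 called with siRNA, 16 changed the same way with the drug by DESeq2, 8 the opposite way and 5 passed in neither direction. In the authors' deposited table, members with an adjusted siRNA p under 0.05 numbered 12, 2 higher and 10 lower. With the drug 6 of them were called in the same direction. SF3B2, IFIT1, IFIT2, IFIT3 and NUDT8 were called there in the opposite direction, and TAF13 was called in neither.

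**Figure D5:**
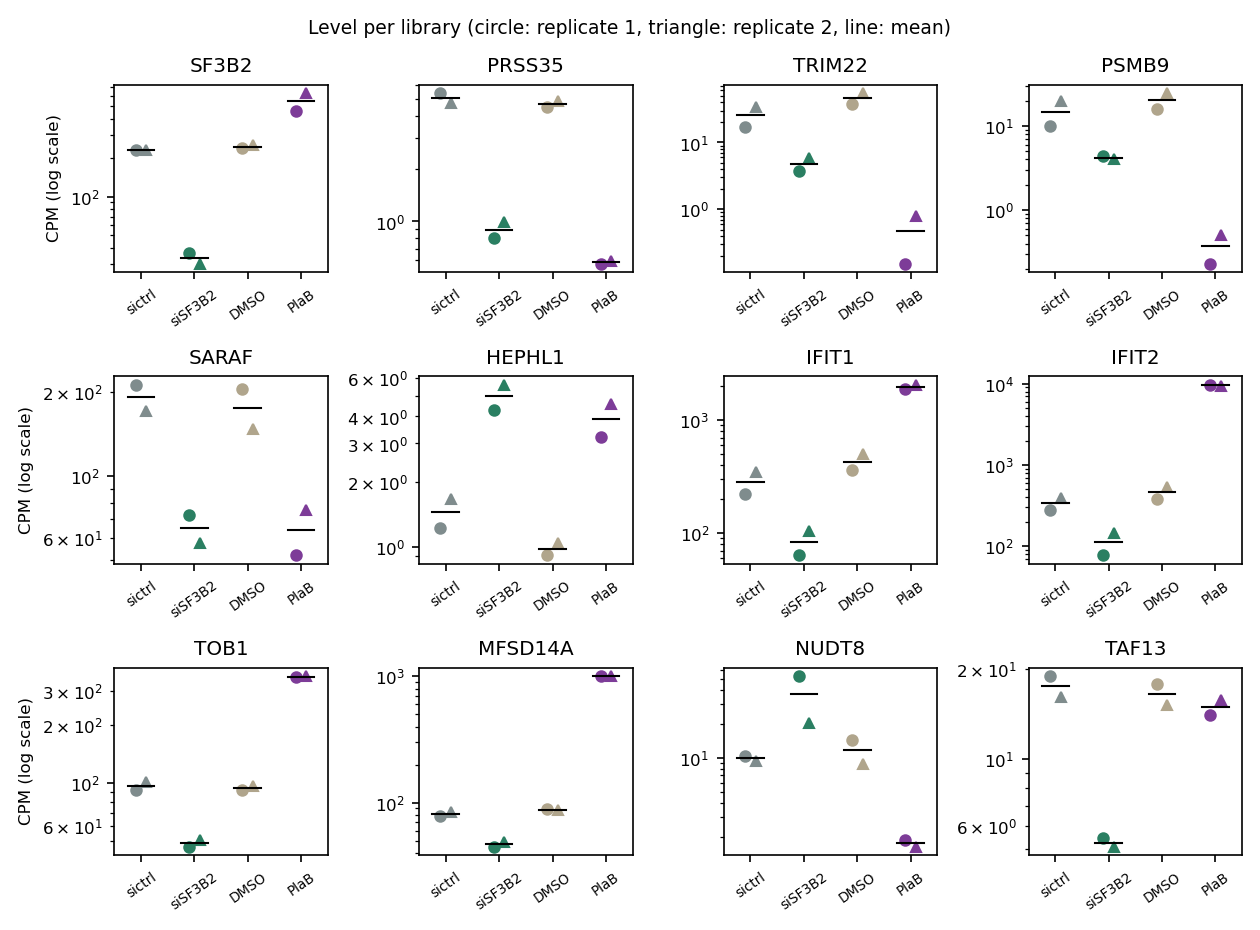
Each panel gives 1 gene's level in CPM (log axis, scaled per panel) in the 8 libraries, with replicate 1 as a circle, replicate 2 as a triangle and the group mean as a line. PRSS35, TRIM22, PSMB9 and SARAF lie low in both treated groups, HEPHL1 lies high in both, and SF3B2, IFIT1, IFIT2, TOB1, MFSD14A and NUDT8 lie on opposite sides.

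Some genes with a siRNA effect did not pass with the drug under the scaling used. TAF13, a subunit of the transcription factor TFIID, lay at 19 and 16.2 CPM with control siRNA and at 5.44 and 5.09 CPM with SF3B2 siRNA. With DMSO it lay at 17.9 and 15.2 CPM and with the drug at 14.0 and 15.8 CPM, where the groups overlap. The interaction was -1.59 ± 0.31 with an edgeR adjusted p of 0.00356. FKBP7, a prolyl isomerase of the endoplasmic reticulum, had log2 fold changes of 1.35 ± 0.25 and -0.43 ± 0.25, with an interaction of 1.78 ± 0.36 and an edgeR adjusted p of 0.00381. For PIM2, a serine/threonine kinase, the interaction of -0.98 ± 0.37 did not pass (edgeR adjusted p = 0.053). The drug effect passed for all 3 genes on library size alone, at -1.01 for TAF13, -1.31 for FKBP7 and -1.18 for PIM2, and the TAF13 interaction of -0.70 did not (edgeR adjusted p = 0.0807). The largest interactions belonged to genes that moved with the drug. THRB, the thyroid hormone receptor beta, lay between 18.0 and 29.7 CPM in the 6 other libraries and at 0.229 and 0.170 CPM with pladienolide B. CFP, the complement regulator properdin, lay between 0.513 and 1.62 CPM in the 6 others and at 109 and 96.1 CPM with it.

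Genes of the splicing machinery passed the test in the drug arm. The SF3b and SF3a list held 12 genes, among them the RNA helicases DDX46 and DHX15, which are not subunits of either complex. Of the 12, 11 rose with the drug, among them SF3B4 by 3.21 ± 0.25 and SF3A2 by 3.26 ± 0.26 (log2). SF3A3 had a drug log2 fold change of -0.48 ± 0.23. On library size alone 4 of the 11, SF3B1, SF3B2, DDX46 and DHX15, no longer passed, and the list median was 0.77 in place of 1.65. With siRNA the 11 genes other than SF3B2 lay between -0.19 (SF3B1) and 0.26 (DDX46), and none passed an unadjusted p under 0.05. The interaction passed for 10 of the 12. It no longer passed on library size alone for SF3B1, SF3B3, SF3B6 and DHX15, with edgeR adjusted p from 0.0568 to 0.374, and SF3A3 passed on the other side at 1.38 (edgeR adjusted p = 0.00944). Of the 32 SR proteins and hnRNPs, 24 rose and 0 fell with the drug (median 1.95), beside a siRNA median of -0.07. Of 41 other spliceosome genes, 28 rose and 5 fell, beside a siRNA median of -0.01.

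Other pathways shared a sign at unequal size. All 74 cytosolic ribosomal protein genes were higher in sign in both arms, with median log2 fold changes of 0.42 and 1.21. None passed with siRNA, and 46 rose and 0 fell with the drug. On library size alone the drug median was 0.34 with 2 higher, and without pladienolide B replicate 1 it was 0.47 with 27 higher. The siRNA median was 0.16 without SF3B2 siRNA replicate 1. Of 26 ATF4 targets, which serve amino acid supply under stress, all were lower in sign with siRNA (median -0.38), and with the drug 15 fell and 4 rose (median -1.51). ASNS, asparagine synthetase, lay at 136 and 76.9 CPM against 56.5 and 23.0 CPM with siRNA, and at 138 and 65.1 CPM against 17.3 and 11.2 CPM with the drug. Replicate 2 lay below replicate 1 in all 4 groups of ASNS, and without SF3B2 siRNA replicate 2 the list's siRNA median was -0.07. Of 29 cholesterol synthesis genes, 28 were lower in sign with siRNA (median -0.22), and with the drug 20 fell and 5 rose (median -1.55).

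Drug counts of the lists above and below stand beside 28.9% higher and 42.4% lower over all members. The drug medians of the remaining lists depend on the scaling. Without scaling factors, on library size alone, they were -2.80 for glycolysis and hypoxia, 0.71 for immediate early genes, 0.30 for heat shock, -1.69 for homologous recombination, -1.93 for adhesion and -1.37 for apoptosis. There they were -1.04 for mitosis, -1.37 for DNA replication, -0.89 for endoplasmic reticulum chaperones, -0.64 for autophagy and -0.70 for nonsense-mediated decay. Of 33 glycolysis and hypoxia genes, 24 fell and 1 rose with the drug (median -1.94), beside a siRNA median of 0.19, and the interaction passed for 20, all with the siRNA effect above the drug effect. Of 29 immediate early genes, 21 rose and 2 fell with the drug (median 1.58), beside 0.01 with siRNA. Of 21 heat shock genes 13 rose and 2 fell with the drug (median 1.17), beside 0.12. Of 32 homologous recombination and Fanconi genes 16 fell and 2 rose (median -0.84), a share lower not far above the 42.4% of all members, beside a siRNA median of -0.03. Of 29 adhesion and matrix genes 16 fell and 1 rose (median -1.04), beside -0.21. Among 30 apoptosis regulators 12 fell and 9 rose, near the shares of all members, beside a siRNA median of -0.05. TNFRSF10A, a TRAIL death receptor with the lowest siRNA effect of that list, had log2 fold changes of -0.89 ± 0.22 with siRNA and -2.33 ± 0.24 with the drug. Of 24 NF-kB targets and cytokines 10 rose and 3 fell with the drug (median 0.67, or -0.19 on library size alone), while with siRNA 15 of the 24 were lower in sign (median -0.36). CCL2, a monocyte chemokine with the highest siRNA effect of that list, had 1.24 ± 0.45 and 1.25 ± 0.45. Among 34 mitosis genes the drug median was -0.17 and the siRNA median 0.25, and among 39 DNA replication genes they were -0.49 and 0.10. Of 23 endoplasmic reticulum chaperones 22 were lower in sign with siRNA (median -0.38, or -0.04 without SF3B2 siRNA replicate 2), while with the drug 5 fell and 2 rose. Of 23 TFIID and general transcription factor genes 10 rose and 4 fell with the drug (median 0.45, or -0.42 on library size alone), beside -0.06 with siRNA. Of 25 autophagy and lysosome genes 8 rose and 11 fell with the drug, near the shares of all members, beside a siRNA median of -0.11. Of 17 nonsense-mediated decay genes 8 rose and 3 fell, beside -0.05.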

How the data were processed

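Per the labels' protocols, libraries were stranded and made from polyadenylated RNA. The submitters' processing notes name Trimmomatic 0.38, HISAT2 2.10, Bowtie2 2.3.5.1, edgeR and the build GRCh38. The authors deposited read counts per gene and library, not normalized. The authors' deposited table also holds a signed fold change, read as a score, and an adjusted p-value per comparison. The sources used here do not state the counting program or its use of strand. Of 102 named genes 38 overlap a gene on the same strand and 55 one on the other, so their levels are uncertain. The table lists no gene at 0 in any library.

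Counts were fitted in R 4.3.3 with edgeR 4.0.16 (robust quasi-likelihood F-test, two-sided, TMM scaling, filterByExpr at a minimum count of 10) on 4 groups without covariates, leaving 4 residual degrees of freedom. Benjamini-Hochberg adjustment ran over all 16488 genes tested. Levels are CPM on the TMM scale, and each ± beside a log2 fold change is its standard error (SE). With TMM factors from all genes, 12164 would be members. No replicate pair was within sampling noise (chi-square per degree of freedom 54.0 to 295). With 2 libraries a group an exact permutation test cannot reach 0.05 and was not run. The code was tested on simulated data. Exon numbers are those of GENCODE 44 canonical transcripts, matched for 12099 members. Alternatives were RLE scaling, library size alone, no filter, DESeq2 1.42.0, the replicate number as a block, 2 groups only, members at 5 CPM, a siRNA limit of 0.5 on the log2 scale, single replicates and leaving out each library. Added after seeing the data were removal of the interferon list, centring on medians, exon classes without single libraries and the interferon counts under each fit. Genes were named by rank of the smaller effect within each quadrant. That rank kept genes at a mean of at least 5 CPM over the controls or a treated group. Genes were also named as members of the SF3b and SF3a list and as calls of DESeq2 or of the deposited comparison. The rest were the largest interactions, siRNA effects without a drug effect and list examples, with 8 named from earlier results. IRF1 and IFIT5 were chosen after their values were seen. Some genes are counted in their lists but not reported here by name. Members and lists were chosen with earlier results of these data known.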

Additional observations from a re-analysis of the deposited data

How the results depend on the processing

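Counts of drug and interaction calls moved widely only on library size alone, while counts that start from the siRNA arm moved under many settings. DESeq2 called 5 members higher and 24 lower with siRNA and 11 in both effects, where edgeR called 0; RLE scaling and the siRNA arm fitted alone each called 1 lower, and leaving out a library called 0 to 1. The siRNA effect on SF3B2 passed the adjusted limit at -2.79 with RLE scaling and at -2.79 with DESeq2, and ran from -2.93 to -2.65 without single libraries. Members higher with siRNA at an unadjusted p numbered 261 with the replicate block, 98 at 5 CPM and 421 in the siRNA arm alone, and 18 to 573 without single libraries. Members lower numbered 464, and 702 in the arm alone, and 100 to 894 without single libraries. On library size alone drug calls were 2053 higher, and interaction calls 6340 above and 1622 below. The counts lower in both, higher in both, lower then higher, and higher then lower were 288, 75, 83 and 123 with the replicate block and 381, 126, 82 and 204 with a siRNA limit of 0.5 on the log2 scale. On library size alone the last 3 were 26, 27 and 105, and at 5 CPM the second was 28. Without single libraries the 4 counts ran from 55 to 595, 6 to 187, 19 to 187 and 7 to 279. Pearson's r was 0.047 for siRNA replicate 1 with drug replicate 2, and 0.022 to 0.162 without single libraries. Spearman's rho was 0.123 for both first replicates, 0.037 for siRNA replicate 1 with drug replicate 2, and -2.0e-05 to 0.149 without single libraries. The same-sign share was 50.3% on library size alone, 53.8% for both first replicates and 49.2% to 55.1% without single libraries. The cause of these moves was not tested. On library size alone the siRNA minus drug difference changed sign for ARMH4 (0.00923), DOK3 (0.297) and TMEM30A (0.132), and the drug effect for SLC29A4 (-0.217). Of genes that had not passed, the difference also changed sign there for SARAF (0.775), HEPHL1 (0.687), NUP35 (0.546) and LOC100289561 (0.576), and the drug effect for TENT5C (-0.597).

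Replicate numbers are shared by the groups, but nothing says what they mark. Replicate differences correlated at 0.542 to 0.667 among control siRNA, SF3B2 siRNA and DMSO and at 0.125 to 0.248 with pladienolide B. The replicate block gave 0 siRNA calls, 3642 higher and 5442 lower with the drug, and 4596 and 3039 in the interaction. Low counts under pladienolide B, a median of 227 and 223.5 per gene, limit the precision of genes that fell. Leaving 1 library in a group assumes that it varies like the others.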

Other observations

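Noncoding genes outside the members were compared in the same way, as values only. Over 945 lncRNA genes the correlation of the effects was 0.079 and the same sign was seen in 50.8%, with 250 higher and 352 lower with the drug. LINC00261 lay at 13.7 and 15.3 CPM with control siRNA and at 48.6 and 46.0 CPM with SF3B2 siRNA. It lay at 16.5 and 26.5 CPM with DMSO and at 1.37 and 1.11 CPM with pladienolide B, on the opposite side. IRF1-AS1 was lower in sign in both arms, with log2 fold changes of -1.28 ± 0.39 and -3.18 ± 0.45. Of 16 snoRNA genes 14 rose and 0 fell with the drug (median log2 fold change 3.98), beside a siRNA median of 0.30 with none passing. Over all genes tested 32.5% rose and 35.5% fell with the drug. The libraries were made from polyadenylated RNA, and the counts do not separate spliced from unspliced RNA. Whether the snoRNA counts come from snoRNA or from unspliced RNA of other genes was not tested.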
